A study of Mus musculus with 6 samples.

Results

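Extracellular adenosine is a brake on the heart, and 10 mouse genes that make it, move it across membranes or sense it were followed here in VAChT KD and WT hearts: the adenosine receptors Adora1, Adora2a, Adora2b and Adora3, the equilibrative nucleoside transporters Slc29a1, Slc29a2, Slc29a3 and Slc29a4, and the ectonucleotidases Nt5e and Entpd1. They were chosen by name, and a probe set counted for a gene where the annotation of the array gave that gene alone. Of the 35556 probe sets on the array, 21789 carry 1 gene symbol, and 6 of these belong to the 10 genes, 1 each for Slc29a1, Slc29a2, Slc29a3, Slc29a4, Nt5e and Entpd1. A further probe set is listed for Tmigd3 and Adora3 together and is described apart, and Adora1, Adora2a and Adora2b, for which the annotation used here lists no probe set, were not analysed here.

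RNA came from hearts of untreated male mice aged 3 months, and 6 Affymetrix Mouse Gene 1.0 ST arrays were hybridised, 3 labelled VAChT KD and 3 labelled WT, each with a pool of 2 RNA samples. VAChT KD mice are homozygous for an allele that lowers the vesicular acetylcholine transporter in the whole body, and release less acetylcholine. For both groups the labels name C57BL/6 as the strain and the heart as the tissue, in 1 place the whole heart, and the methods name ventricles and a C57BL6/j background that is mixed, with few generations of backcrossing. Since every array held a pool, the p-values reflect how much 3 pools of a group varied, and the number of arrays limits the precision.

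In the extracellular space of the heart, ENTPD1 (CD39) strips phosphate from ATP and ADP and NT5E (CD73) converts the resulting AMP to adenosine. Equilibrative transporters then carry adenosine down its gradient into cells, where it is phosphorylated or broken down, so that they set how long it acts on its receptors. Among the receptors, those coupled to inhibitory G proteins slow the sinus node and oppose adrenergic stimulation, as acetylcholine does through muscarinic receptors, and those coupled to the stimulatory G protein dilate coronary vessels.

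The promoters of 3 of these genes are shown because they belong to the 2 ectonucleotidases that form the adenosine-producing pair and to Slc29a4, the transporter at which the labelled groups did not overlap. Each is the 250 bases before a start site, 5′ to 3′, from RefSeq (GRCm38.p6), on the plus strand at chr5:142701851-142702100 for Slc29a4, chr9:88327359-88327608 for Nt5e and chr19:40612116-40612365 for Entpd1. Capitals mark GC boxes, GGGCGG on either strand (CCGCCC on the other), the sequence that factors of the SP1 family bind, and boxes that overlap were counted separately.
Slc29a4: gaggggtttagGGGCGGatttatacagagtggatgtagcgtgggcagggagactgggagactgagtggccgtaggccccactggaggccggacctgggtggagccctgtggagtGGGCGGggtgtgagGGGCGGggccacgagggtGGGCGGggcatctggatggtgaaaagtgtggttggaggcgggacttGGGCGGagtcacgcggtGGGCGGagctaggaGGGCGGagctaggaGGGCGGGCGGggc
Nt5e: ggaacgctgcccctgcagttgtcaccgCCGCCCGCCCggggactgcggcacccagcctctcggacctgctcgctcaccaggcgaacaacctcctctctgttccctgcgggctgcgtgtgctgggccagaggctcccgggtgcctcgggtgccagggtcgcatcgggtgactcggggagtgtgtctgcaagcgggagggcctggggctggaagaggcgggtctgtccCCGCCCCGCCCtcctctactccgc
Entpd1: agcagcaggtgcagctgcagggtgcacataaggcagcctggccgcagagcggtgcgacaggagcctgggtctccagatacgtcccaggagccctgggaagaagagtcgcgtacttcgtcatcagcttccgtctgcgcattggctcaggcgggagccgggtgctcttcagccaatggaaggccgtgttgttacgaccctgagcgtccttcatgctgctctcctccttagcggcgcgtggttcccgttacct
The Slc29a4 window held 9 GC boxes, most of them in its downstream part, the Nt5e window 4, and the Entpd1 window 0. Among the 32851 promoter windows of the same length in the table, 32.7% held at least 1 GC box, 4.09% at least 4 and 0.0731% at least 9. The core of the hypoxia response element, ACGTG or CACGT, was found in none of these 3 windows and in 16.6% of all windows. Windows of 9 of the 10 genes were matched by symbol.

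Arrays are named by their labels throughout. Slc18a3, the gene of the vesicular acetylcholine transporter, read 7.24, 6.77 and 7.58 (log2) on the arrays labelled VAChT KD 1, 2 and 3, and 7.31, 7.42 and 7.11 on those labelled WT 1, 2 and 3, so it did not separate the groups. Ogdhl, an oxoglutarate dehydrogenase-like gene, read 7.06, 10.17 and 7.09 on VAChT KD 1, 2 and 3, and 9.60, 7.21 and 10.33 on WT 1, 2 and 3. On both arrays numbered 2 it thus lay among the values of the other label, and whether these 2 arrays were exchanged was not tested. With their labels exchanged Ogdhl would differ by -2.91 (log2, VAChT KD minus WT) with no overlap, against -0.94 with overlap as labelled. Pnp, a purine nucleoside phosphorylase of the lists below, had overlapping groups as labelled. It read 8.81, 8.24 and 8.77 on VAChT KD 1, 2 and 3, and 8.07, 8.63 and 7.51 on WT 1, 2 and 3. VAChT KD 2 was thus the lowest of its group and WT 2 the highest of its group. The labels were kept. The members' results and those of the pathway genes past an unadjusted p of 0.05 are also given without these 2 arrays, and values with both labels exchanged, a reading added after the data were seen, carry no test. Groups that do not overlap as labelled must overlap after such an exchange. Arrays correlated at 0.982 to 0.994 across probe sets. The array labelled VAChT KD 1 also had a lower mean signal over 6 cardiomyocyte markers, such as Tnnt2 and Myh6, at 13.24 against 14.01 to 14.11 on the other 5. Dcn, a bright fibroblast marker, was also lowest there, at 12.84 against 13.09 to 13.30. Ryr2, the least bright of the 6, read 12.37 against 12.43 to 12.61. Signal was set against 1035 olfactory receptor probe sets, whose 95th percentile of 6.50 served as background. Markers of ventricular muscle were bright (mean 11.83 to 12.22 over Myl2, Myl3 and Irx4), and the 5 atrial markers also lay above that background.

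All 6 probe sets with 1 symbol and the shared probe set had a mean signal above background, and their order by signal was Slc29a1, Entpd1, Nt5e, Slc29a2, Slc29a3, Slc29a4 and the shared probe set. Signals of different probe sets depend on their probes as well as on the RNA, so this is an order of signals and not of transcript amounts. Slc29a1 (mean 9.65 over the 6 arrays) and Entpd1 (9.45) were brighter than 87.8% and 86.2% of all probe sets. Nt5e (8.86) was brighter than 80.0%, Slc29a2 (8.41) than 74.3%, Slc29a3 (8.21) than 71.4% and Slc29a4 (7.04) than 52.6%. The ranges over the 6 arrays of neighbours in this order did not overlap except for Slc29a4 and the shared probe set (6.90), although Slc29a1 began at 9.54 where Entpd1 ended at 9.53. The order of the 6 was the same from the VAChT KD arrays alone and from the WT arrays alone.

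**Figure D1:**
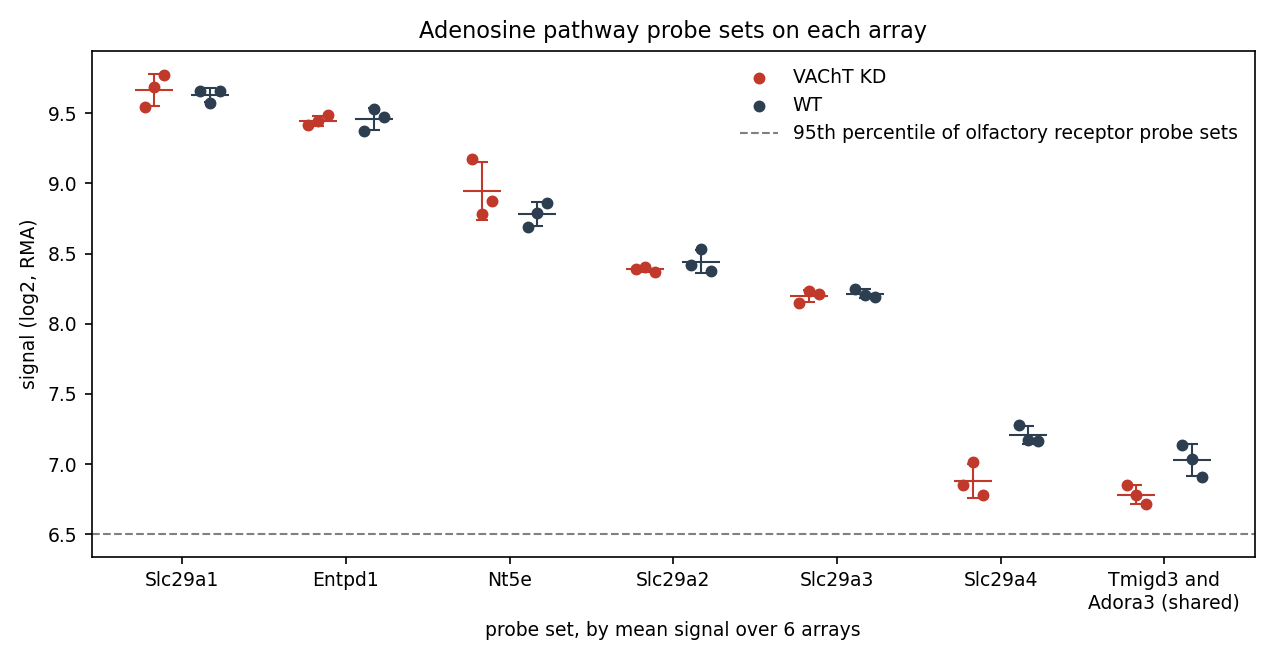
Log2 signal (vertical axis) of the 7 probe sets (horizontal axis, by mean signal) on each of the 3 arrays labelled VAChT KD and the 3 labelled WT, as points, with the group mean and SD as bars and the olfactory receptors' 95th percentile as a dashed line. As labelled, the groups separate at Slc29a4, with VAChT KD between 6.78 and 7.01 and WT between 7.17 and 7.28, and at the probe set shared by Tmigd3 and Adora3.

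Slc29a4 was the member whose signal differed most between the labelled groups. It encodes the plasma membrane monoamine transporter, which takes up serotonin and dopamine and carries adenosine at acidic pH. Slc29a4 read 6.85, 7.01 and 6.78 on the arrays labelled VAChT KD 1, 2 and 3, and 7.28, 7.17 and 7.17 on those labelled WT 1, 2 and 3. As labelled, every VAChT KD array lay below every WT array. The means were 6.88 ± 0.12 in VAChT KD and 7.21 ± 0.06 in WT (SD, n = 3 arrays each), a log2 difference of -0.32 (standard error 0.09, 95% interval -0.54 to -0.11) or 0.798-fold. With limma the unadjusted p was 0.00802 and the adjusted p over all probe sets 0.409, so it did not pass 0.05 after adjustment. An exact permutation test of the 6 arrays gave a two-sided p of 0.1, the smallest that 3 arrays against 3 allow. Without both arrays numbered 2 the difference was -0.41 (standard error 0.12, limma adjusted p = 0.464). With the labels of these 2 arrays exchanged it would be -0.22, and the overlap of the groups would then follow from the exchange itself. In bulk tissue, fewer cells of a type and less RNA per cell cannot be told apart.

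This difference has to be read against a drift with signal over the whole array. The median difference over probe sets with 1 symbol was -0.02, but it was -0.13 for those with a mean between 6 and 7, -0.02 between 7 and 8, and 0.07 between 9 and 10. Slc29a4, at 7.04, stood at the edge of 2 of these bands and below the medians of both, and its difference was -0.27 when the arrays were quantile-normalized again and -0.26 when each was centred on its median. Of the 6 members 1 passed an unadjusted p of 0.05 in limma (16.7%), against 9.93% of the probe sets with 1 symbol and 11.7% of all probe sets. At 14.3% of the probe sets with 1 symbol the groups did not overlap with VAChT KD lower, as at Slc29a4, and 7.86% passed the unadjusted p in that direction. No member passed an adjusted p of 0.05 with limma, as 0.00281% of all probe sets did. With all 6 arrays, none passed the pair of thresholds that the methods used, an unadjusted p of 0.05 and 1.3-fold. Of the probe sets with 1 symbol, 1.4% passed this pair with limma. Slc29a4 did pass the pair in limma without both arrays numbered 2 (-0.41, unadjusted p = 0.0156). Without VAChT KD 2 alone it also passed in limma (-0.39, unadjusted p = 0.00555). Over all probe sets, 2800 and 1923 passed the pair in these fits, against 1348 with all 6 arrays. With any other single array left out Slc29a4 did not reach 1.3-fold.

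**Figure D2:**
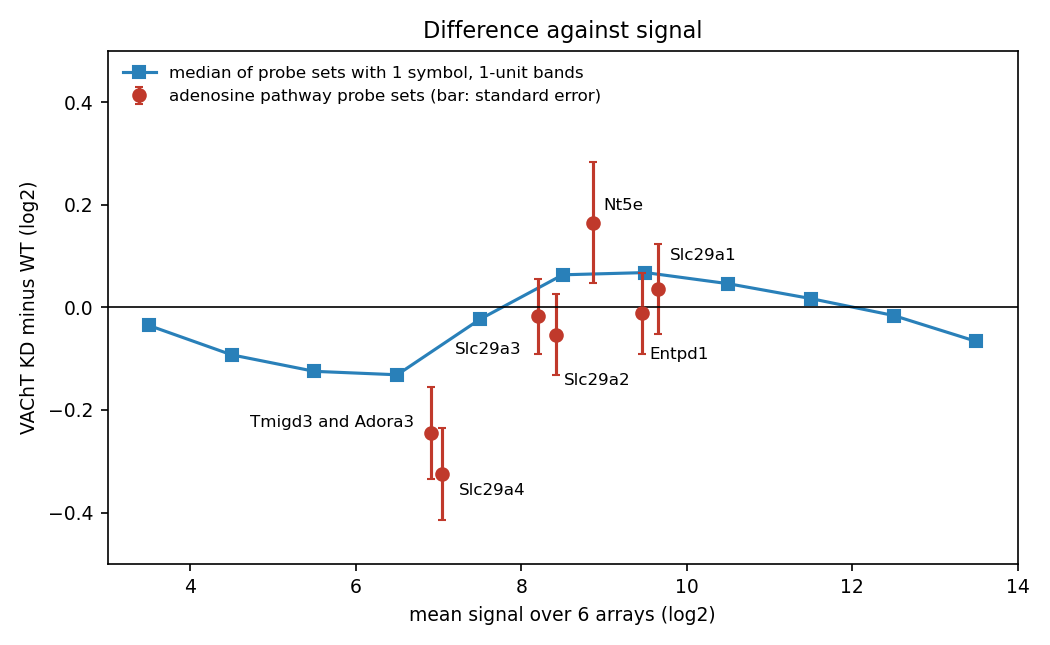
Difference between VAChT KD and WT arrays (log2, vertical axis) against mean signal over the 6 arrays (log2, horizontal axis) for the 7 probe sets, with limma's standard error, and the median of all probe sets with 1 symbol in bands of 1 log2 unit (bands of at least 20 probe sets). The median lies at -0.13 between 6 and 7 and at 0.07 between 9 and 10, and Slc29a4 and the shared probe set lie below the line.

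The other equilibrative transporters differed little. Slc29a1 encodes ENT1, the main carrier of adenosine into cardiac muscle and endothelial cells and the target of dipyridamole. It read 9.54, 9.68 and 9.77 on the arrays labelled VAChT KD 1, 2 and 3, and 9.66, 9.57 and 9.66 on those labelled WT 1, 2 and 3. The groups overlapped, with means of 9.67 ± 0.12 in VAChT KD and 9.63 ± 0.05 in WT (SD, n = 3 each), and the difference of 0.04 had a 95% interval of -0.17 to 0.24 (limma adjusted p = 0.874). Slc29a2 encodes ENT2, which also carries nucleobases such as hypoxanthine. Its signal was 8.39, 8.40 and 8.37 on VAChT KD 1, 2 and 3, against 8.42, 8.53 and 8.37 on WT 1, 2 and 3. The WT array numbered 2 was the highest of the 6, and the difference was -0.05 (95% interval -0.24 to 0.13). Slc29a3 encodes ENT3, a transporter of lysosomes and mitochondria. It read 8.15, 8.23 and 8.21 on VAChT KD 1, 2 and 3, and 8.25, 8.21 and 8.19 on WT 1, 2 and 3, a difference of -0.02 (95% interval -0.19 to 0.15) with overlapping groups. Without both arrays numbered 2 the differences were 0.00 for Slc29a1, -0.02 for Slc29a2 and -0.04 for Slc29a3, and with the labels of both exchanged they would be -0.04, 0.03 and -0.03. In the fit as labelled and deposited, the intervals leave room for a change of up to about 0.24 in either direction at these 3 genes. That is less than the 1.3-fold (0.38 on the log2 scale) of the methods. Without both arrays numbered 2 the standard errors were larger, at 0.13 for Slc29a1, 0.12 for Slc29a2 and 0.12 for Slc29a3, so this bound does not carry over.

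The pair of ectonucleotidases did not separate the labelled groups either. Nt5e, whose product makes adenosine from AMP at the cell surface, read 9.18, 8.78 and 8.87 on the arrays labelled VAChT KD 1, 2 and 3, and 8.69, 8.79 and 8.86 on those labelled WT 1, 2 and 3. VAChT KD 1 stood above the other 5 arrays, which overlapped. The means were 8.94 ± 0.21 in VAChT KD and 8.78 ± 0.09 in WT (SD, n = 3 each), which differed by 0.16 (standard error 0.12, 95% interval -0.11 to 0.44, limma adjusted p = 0.563). Without VAChT KD 1, the array with the low cardiomyocyte marker signal, it was 0.05 (standard error 0.10), and without both arrays numbered 2 it was 0.25 (standard error 0.16, limma adjusted p = 0.547). With the labels of both exchanged it would be 0.17. The part of the cardiomyocyte markers in this value was not tested.

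Entpd1, whose product hydrolyses ATP and ADP on vascular endothelium and immune cells, was the steadier of the pair. It read 9.41, 9.44 and 9.49 on VAChT KD 1, 2 and 3, against 9.37, 9.53 and 9.47 on WT 1, 2 and 3. All 3 VAChT KD values lay within the range of the WT values, and the difference was -0.01 (standard error 0.08, 95% interval -0.20 to 0.17). Without both arrays numbered 2 it was 0.03, and it would be 0.05 with their labels exchanged. Endothelial markers, which include Pecam1 and Cdh5, had a mean signal of 10.16 to 10.36 on VAChT KD arrays and 10.16 to 10.41 on WT arrays, and of the 8 none passed an unadjusted p of 0.05.

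The probe set listed for Tmigd3 and Adora3 together cannot be assigned to either gene. Adora3 encodes an adenosine receptor coupled to inhibitory G proteins, which in the mouse is found on mast cells, and the RefSeq table places it within the span of Tmigd3, an immunoglobulin-domain gene. The probe set read 6.85, 6.78 and 6.72 on the arrays labelled VAChT KD 1, 2 and 3, and 7.13, 7.04 and 6.91 on those labelled WT 1, 2 and 3. Every VAChT KD array lay below every WT array, as at 12.9% of all probe sets, and the difference was -0.24 (standard error 0.09, 95% interval -0.45 to -0.04, limma unadjusted p = 0.0277, adjusted p = 0.409), where 7.81% of all probe sets were lower at an unadjusted p of 0.05. With median centring the limma fit no longer gave an unadjusted p under 0.05 (-0.18, unadjusted p = 0.0672, adjusted p = 0.476), nor did it without both arrays numbered 2 (-0.24, unadjusted p = 0.141, adjusted p = 0.534). With the labels of both exchanged the difference would be -0.07. It also missed 0.05 in limma without VAChT KD 2, VAChT KD 3, WT 1 or WT 2 in turn (unadjusted p of 0.0689, 0.0788, 0.077 and 0.0696). Its mean of 6.90 lay between 6 and 7, where probe sets with 1 symbol had a median difference of -0.13.

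Markers of other cell types also differed between the labelled groups. Of 7 mast cell markers measured, 4 lay above background, and 2 had an unadjusted p under 0.05 in limma, both higher in VAChT KD, as at 2.07% of the probe sets with 1 symbol: Cpa3, a mast cell carboxypeptidase (0.36, standard error 0.09), and Mcpt4, a chymase (0.34, standard error 0.14). Leaving out both arrays numbered 2, they differed by 0.29 and 0.29 (limma unadjusted p = 0.0742 and 0.192), and with the labels of both exchanged they would differ by 0.02 and 0.04. Kit, the stem cell factor receptor, and the tryptase Tpsb2 differed by -0.05 and -0.06 and did not pass, and Ms4a2 and Fcer1a, chains of the IgE receptor that define the cell, lay below background. The mean signal over the 7 was 6.01 to 6.14 on VAChT KD arrays and 5.97 to 6.12 on WT arrays. Of 6 smooth muscle and pericyte markers, Tagln was also higher at the unadjusted p (0.22, standard error 0.09, limma unadjusted p = 0.0475). Tagln and Myh11 (0.13, standard error 0.08) had groups without overlap, VAChT KD higher, as at 5.61% of the probe sets with 1 symbol. The mean over these 6 was 9.71 to 9.87 on VAChT KD arrays and 9.66 to 9.77 on WT arrays.

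Other lists held genes lower in VAChT KD, as Slc29a4 and the shared probe set were. Among all probe sets with 1 symbol, 7.86% were lower at an unadjusted p of 0.05 in limma. Probe sets with 1 symbol and a mean between 6 and 7, where Th, Actn3 and Cd8a lay, had a median difference of -0.13. Of the 5 nerve and Schwann cell markers measured, Th, the first enzyme of catecholamine synthesis, differed by -0.34 (standard error 0.13, limma unadjusted p = 0.0338; -0.44 without both arrays numbered 2), and the mean over the 5 was 6.50 to 6.59 on VAChT KD arrays and 6.60 to 6.77 on WT arrays. Of 5 adipocyte markers, Plin1, a lipid droplet protein, passed the unadjusted p (-0.25), and their mean was 7.37 to 7.47 on VAChT KD arrays and 7.52 to 7.87 on WT arrays. The highest of these means was on WT 1, where the adipocyte marker Ucp1 read 7.41 against 5.79 to 6.07 on the other 5 arrays. Of 6 markers of fast skeletal muscle, Actn3 and Tnni2 passed (-0.24 and -0.27), with a mean over the 6 of 7.40 to 7.50 on VAChT KD arrays and 7.51 to 7.70 on WT arrays. Of 7 lymphocyte markers, the T cell genes Cd8a and Cd3e passed (-0.40 and -0.22). The others were below background and did not pass: the T cell genes Cd3g (-0.002) and Cd4 (0.02), and Klrb1c (-0.07), Ms4a1 (0.26) and Cd79a (0.10). The mean over the 7 was 5.46 to 5.74 on VAChT KD arrays and 5.57 to 5.79 on WT arrays. Of Plin1, Actn3, Tnni2, Cd8a and Cd3e, only Cd8a (-0.56) kept an unadjusted p under 0.05 in limma when both arrays numbered 2 were left out. The part of these markers in the values of Slc29a4 and of the shared probe set was not tested.

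**Figure D3:**
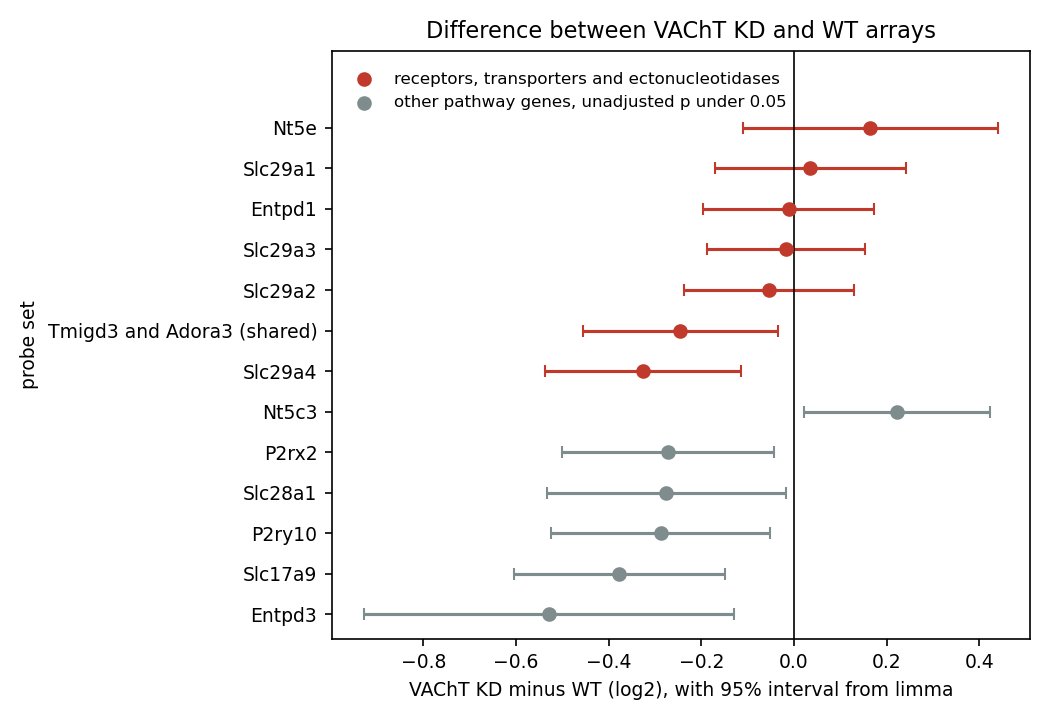
Log2 difference of VAChT KD minus WT (horizontal axis) with limma's 95% interval for the 7 probe sets (red) and for the other pathway genes past an unadjusted p of 0.05 (grey). Slc29a4 and the shared probe set lie below 0 with their intervals, and the intervals of Slc29a1, Slc29a2, Slc29a3, Nt5e and Entpd1 include 0.

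Around these members, 64 other genes of nucleotide and adenosine handling were listed in 6 groups, and 59 of them had a probe set with 1 symbol. In limma 6 of the 59 had an unadjusted p under 0.05, 5 lower and 1 higher in VAChT KD. Of all probe sets with 1 symbol 9.93% did, 7.86% lower and 2.07% higher, so the count was near the share over the array. None of the 59 had an adjusted p under 0.05, and their median difference was -0.01. The split was 3 lower and none higher when the arrays were quantile-normalized again, and 3 lower and 2 higher when each was centred on its median. Over all probe sets with 1 symbol 1712 were lower and 451 higher at this p as deposited, 1247 and 552 after the quantile normalization, and 741 and 1002 with median centring.

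Of the 3 concentrative transporters, which pull nucleosides into cells along with sodium, 1 passed the unadjusted p. Slc28a1, which prefers pyrimidine nucleosides, was lower, at 6.96, 6.93 and 6.80 on VAChT KD 1, 2 and 3, against 7.38, 7.03 and 7.10 on WT 1, 2 and 3, a difference of -0.28 (standard error 0.11, limma unadjusted p = 0.0392). Without both arrays numbered 2 it was -0.36 (unadjusted p = 0.0509 in limma), and with 1 array left out only the fit without WT 2 kept an unadjusted p under 0.05, while the difference without WT 1 was -0.17. The unadjusted p was also 0.064 in limma after a further quantile normalization, 0.0714 with median centring and 0.0712 with array weights, and the methods' own model also missed 0.05. Slc28a2, which prefers purine nucleosides such as adenosine, differed by 0.17 (standard error 0.11), with overlapping groups, and Slc28a3, a carrier of both kinds, by -0.18 (standard error 0.14) at a signal below background. Neither passed.

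Among 9 further ectonucleotidases and ectophosphatases, 1 passed the unadjusted p, Entpd3, a relative of Entpd1 that is known from neurons and epithelia. Entpd3 read 6.36, 6.46 and 6.30 on VAChT KD 1, 2 and 3, and 7.30, 6.60 and 6.81 on WT 1, 2 and 3. The groups did not overlap, and the array labelled WT 1 was the highest. With VAChT KD lower, 14.3% of the probe sets with 1 symbol did not overlap either. The Entpd3 difference of -0.53 (standard error 0.17, limma unadjusted p = 0.0164) was -0.33 without WT 1 and -0.72 without both arrays numbered 2. With all arrays kept, Entpd3 was the only one of the 59 that also reached 1.3-fold in limma. Of the probe sets with 1 symbol, 1.4% did. Entpd3 did not do so without WT 1, and it missed an unadjusted p of 0.05 in the methods' own model. Its mean of 6.64 was close to background, between 6 and 7, where the median difference was -0.13. Acpp, a phosphatase that can make adenosine from AMP, had the next smallest p (-0.22, standard error 0.10), at a signal below background.

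Of 18 enzymes that handle adenosine and purines inside the cell, Nt5c3, a cytosolic nucleotidase of pyrimidine monophosphates, passed the unadjusted p. It read 9.02, 8.97 and 9.03 on VAChT KD 1, 2 and 3, and 8.76, 8.91 and 8.68 on WT 1, 2 and 3, so that every VAChT KD array lay above every WT array, as at 5.61% of the probe sets with 1 symbol, of which 2.07% were higher at the unadjusted p. The difference was 0.22 (standard error 0.09, limma unadjusted p = 0.0338), and 0.16 (unadjusted p = 0.0881 in limma) after a further quantile normalization, and the unadjusted p was 0.0519 with array weights and 0.0597 with the replicate number as a block. With 1 array left out, only the fit without WT 2 (0.29) kept an unadjusted p under 0.05, while the difference without WT 3 was 0.17, and without both arrays numbered 2 it was 0.30 (unadjusted p = 0.0432 in limma). Ampd1, the AMP deaminase of skeletal muscle, followed at -0.22 (standard error 0.11) and a signal below background. Adk, the kinase that returns adenosine to AMP and 1 of the brightest of the list at 11.1, differed by 0.05 (standard error 0.09). Pnp had the largest difference of this list, at 0.54 (standard error 0.28, limma unadjusted p = 0.0964), with overlapping groups, and did not pass.

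The 15 receptors for ATP and related nucleotides held 2 genes past the unadjusted p, P2rx2 (-0.27, standard error 0.10) and P2ry10 (-0.29, standard error 0.10), both lower in VAChT KD and below background. Leaving out both arrays numbered 2, they differed by -0.31 and -0.34 (limma unadjusted p = 0.0581 and 0.0571). P2rx2 also missed an unadjusted p of 0.05 without VAChT KD 2, VAChT KD 3, WT 1 or WT 3 in turn, and P2ry10 without VAChT KD 2, VAChT KD 3 or WT 1. After a further quantile normalization and with median centring P2rx2 had unadjusted p-values of 0.0616 and 0.0613 in limma. Of 5 genes of nucleotide release, Slc17a9, which loads ATP into vesicles, had the smallest p. It read 5.99, 6.08 and 5.79 on VAChT KD 1, 2 and 3, and 6.38, 6.34 and 6.27 on WT 1, 2 and 3, all below background and without overlap (-0.38, standard error 0.10, limma unadjusted p = 0.00546), and the difference was -0.43 without both arrays numbered 2. In this direction 14.3% of the probe sets with 1 symbol did not overlap, and those with a mean between 6 and 7, where Slc17a9 lay, had a median difference of -0.13. Next to Slc17a9 in this list came Panx3, a pannexin, at -0.17 (standard error 0.11), also below background. None of 9 effectors of the adenosine receptors passed the unadjusted p. The 2 with the smallest p were Gnao1, a G protein subunit, at -0.23 (standard error 0.21), which was 0.01 without VAChT KD 3, and Adcy5, a cardiac adenylyl cyclase, at 0.10 (standard error 0.09). Kcnj3 and Kcnj5, which form the potassium channel that adenosine and acetylcholine both open in atrial and nodal cells, were bright and differed by 0.02 and 0.00.

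Over the 6 arrays, the genes whose signal ran most like that of Slc29a1 among 14474 probe sets with 1 symbol above background were Rpl37a (Pearson r = 0.996), Rom1 (0.994) and S100a13 (0.993), and 243 of these probe sets had r above 0.9. For Entpd1 they were Ptbp1 (0.989), Rtn4 (0.980) and Arf3 (0.979), with 134 above 0.9. These are descriptions over 6 arrays that share a normalization.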

How the data were processed

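Heart RNA was measured on 6 arrays, 3 labelled VAChT KD and 3 labelled WT, grouped and numbered by their titles. After scanning, the authors used the RMA algorithm of Partek Genomics Suite to turn probe intensities into 1 log2 signal per probe set, corrected for background and normalized across arrays, and deposited these log2 values. Which genome build they used is not given in the sources used here. Names came from the platform annotation supplied (21789 probe sets with 1 symbol, 1621 with several, 12146 unlisted). RefSeq (GRCm38.p6) gave the promoters, gene IDs and the nesting of Adora3 in Tmigd3.

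No filter or further scaling was applied. One model over all 35556 probe sets compared VAChT KD with WT (lmFit and eBayes, limma version 3.58.1, R version 4.3.3), and Benjamini-Hochberg adjustment ran over every probe set. The probe set with the highest mean stood for a listed gene with several. All members were named, and from each list the genes past an unadjusted p of 0.05 and otherwise those with the 2 smallest p. Outside this rule, Adk, Pnp, Kcnj3, Kcnj5 and the cell type markers were named after their values were seen. Members and lists were chosen with earlier results of these data known, as was leaving out both arrays numbered 2. Exchanging their labels was added after the data were seen. Alternatives were 2 other scalings, 2 filters, other eBayes settings, array weights, the methods' ANOVA, a replicate block, the mean over a gene's probe sets, and arrays left out. On 10 simulated data sets of 35556 probe sets with 200 changed, an unadjusted p of 0.05 in limma recovered 70.8% of log2 changes of 0.3 and 99.4% of changes of 1, and the adjusted p recovered 0.4% and 90.8%. It called 4.84% of the unchanged ones at the unadjusted p.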

Additional observations from a re-analysis of the deposited data

How the results depend on the processing

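Slc29a4 was lower on the arrays labelled VAChT KD, with an unadjusted p under 0.05, in the 15 alternatives that kept the arrays' labels (-0.41 to -0.26), and its adjusted p stayed at 0.275 to 0.803. With the labels of both arrays numbered 2 exchanged, which was added after the data were seen and not tested, its difference was -0.220. The groups then overlapped, as they must after that exchange. That exchange turned the sign of Slc29a1 (-0.0405), Slc29a2 (0.0332), Entpd1 (0.0493), Slc28a2 (-0.0119) and Adcy5 (-0.00520), and took the shared probe set to -0.0695, Slc17a9 to -0.202, P2rx2 to -0.136 and Ampd1 to -0.0755. No member passed an adjusted p of 0.05 in any of the 15. The signs of 4 members near 0 were not stable. With each array centred on its median, Entpd1 differed by 0.0549, Slc29a2 by 0.0132 and Slc29a3 by 0.0492. After a further quantile normalization Slc29a1 differed by -0.0248, and without both arrays numbered 2 it differed by -0.00368 and Entpd1 by 0.0284. With 1 array left out they ran from -0.0544 to 0.0255 for Entpd1, -0.0169 to 0.0972 for Slc29a1 and -0.0350 to 0.00756 for Slc29a3, and Gnao1 from -0.380 to 0.0139. The cause was not tested.

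Pathway genes past an unadjusted p, 1 higher and 5 lower as deposited, were 0 and 3 after quantile normalization, 2 and 3 with median centring, and 2 and 3 without both arrays numbered 2. Those higher were 0 with array weights and 2 among probe sets with 1 symbol. Those lower were 2 among probe sets above background and 3 with the methods' ANOVA. With 1 array left out they ran from 0 to 2 higher and from 2 (without WT 1 or VAChT KD 3) to 7 (without WT 2) lower.

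Over all probe sets, 1 passed an adjusted p of 0.05 with limma, against 3 with array weights, 0 among probe sets above background, with 1 symbol, with the methods' ANOVA and without both arrays numbered 2, and 0 with any 1 array left out. The 4174 at an unadjusted p were 2502 among probe sets above background and 2160 to 4658 with 1 array left out. The 1348 that also reached 1.3-fold were 581 above background, 354 with 1 symbol, 587 with the methods' ANOVA, 2800 without both arrays numbered 2, and 841 to 2173 with 1 array left out.

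The replicate numbers were not treated as pairs in the main fit. Deviations of same-numbered arrays correlated at 0.06, -0.12 and 0.13, and 2 of the 3 VAChT KD arrays correlated best with their own number. With 3 arrays in a group, these values cannot decide whether the numbers pair samples. With the replicate number as a block, 0 probe sets passed the adjusted p, 0 pathway genes were higher at the unadjusted p, and Slc29a4 kept an unadjusted p of 0.0167 in limma. Signal below background limits what can be said of Acpp, Ampd1, P2rx2, P2ry10, Slc17a9 and Panx3.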
